A study of Mus musculus with 4 samples.

Results

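The Il2-Il21 locus is a stretch of mouse chromosome 3 that holds Il2 and Il21, the genes of 2 T-cell cytokines, with Adad1, Gm12534, Fgf2, Nudt6 and Spata5 beside them. These 7 genes, of 50600 annotated genes, were chosen by name. Their counts per kb of exon, their strands and their exon overlaps in replicates 1, 3 and 4 were known when they were chosen, so their levels and the ratios among them are given as a description, with no test. The data were gene counts of 4 RNA sequencing libraries from T-helper 2 (Th2) cells, CD4 T cells that make interleukins 4, 5 and 13. They were primary cells from C57BL/6NJ mice, in 1 group of biological replicates numbered 1 to 4. The labels name no genotype, allele or agent, give the age as unknown and the sex as not collected, and list a separate biosample but the same donor for each replicate. A time of 72 h stands in the file headers without a stated meaning, the assay is labelled total RNA while its protocol document is named for poly(A) RNA, and a second document covers CD4 T-cell differentiation. Nothing says that the libraries came from separate animals, so p-values and the calls made from them cover the spread among these libraries alone, and that spread may be technical.

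Interleukin 2 is made by T cells soon after their receptor is triggered and drives their growth through a receptor of the subunits Il2ra, Il2rb and Il2rg. Interleukin 21 helps B cells form antibodies and acts through Il21r together with the same Il2rg chain. Both signal through the kinases Jak1 and Jak3, mainly to Stat5a and Stat5b for interleukin 2 and to Stat3 for interleukin 21. Of the neighbours, Fgf2 encodes a fibroblast growth factor, Nudt6 a nudix hydrolase whose gene has long been described as the antisense partner of Fgf2, Spata5 an ATPase of the AAA family, and Adad1 an RNA-binding protein of male germ cells. Gm12534 is annotated as an antisense transcript.

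Replicates 1, 3 and 4 had 2388255, 1929880 and 1713199 gene counts, whereas replicate 2 had 5016, so that 3 counts there stood for 598.09 CPM (counts scaled to a library total of 1000000) against 1.26 to 1.75 CPM in the other libraries. Levels below rest on replicates 1, 3 and 4. Reads were counted only on the annotated strand of a gene. Genes with exons opposite those of another gene took 90.7%, 94.2% and 91.3% of the counts in replicates 1, 3 and 4. Which strand the library kit keeps is not stated in the labels or headers, so each level is a level on the annotated strand and need not hold for the RNA of the gene named. All 8 T-cell markers and all 6 Th2 markers reached 1 TPM (counts scaled for exonic length and then for depth) in each of the 3 libraries. The T-cell markers summed to 225, 130 and 229 TPM and the Th2 markers to 190, 106 and 189 TPM in replicates 1, 3 and 4, lowest in replicate 3. The Th2 sum followed Il13 (96.4, 18.8 and 81.9 TPM), whereas Il4 was highest in replicate 3 (31.7, 47.6 and 40.6 TPM). None of 3 Th1, 3 cytotoxic T-cell or 3 NK-cell markers reached 1 TPM in each library, while 3 of 4 markers of follicular helper T cells, known producers of interleukin 21, did and summed to 7.48, 4.90 and 10.01 TPM, with their defining factor gene Bcl6 at 3 counts in replicate 1 and 0 in replicates 3 and 4. Of the B-cell, myeloid and stromal markers 1 each did (Cd79a, Csf1r and Pecam1), with the B-cell marker Ms4a1 at 0. Their means were 5.80, 140 and 8.82 TPM, so Csf1r stood above every T-cell and Th2 marker. Csf1r has 871 exonic bases opposite Hmgxb3. Cd247, the highest T-cell marker (105.9, 88.3 and 97.8 TPM), has 3007 opposite Pou2f1. In all, 2 of the 8 T-cell, 3 of the 6 Th2 and 3 of the 4 follicular helper markers have opposite-strand exons. The part of such overlaps in these levels was not tested. In bulk libraries, fewer cells of a type and less RNA per cell cannot be told apart.

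Il21 and Gm12534 share bases on opposite strands, and the sequence around the one stretch that meets Il21 coding sequence shows how closely they are placed. Both stretches below are spliced GENCODE transcripts written 5′ to 3′, and the capitals mark the same 35 bases of the genome, chr3:37232435-37232469 (mm10), read on the plus strand in Gm12534 and on the minus strand in Il21.
Gm12534-201, bases 350 to 469: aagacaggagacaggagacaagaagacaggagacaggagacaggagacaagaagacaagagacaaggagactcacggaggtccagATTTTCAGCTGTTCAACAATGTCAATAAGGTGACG
Il21-201, bases 110 to 224: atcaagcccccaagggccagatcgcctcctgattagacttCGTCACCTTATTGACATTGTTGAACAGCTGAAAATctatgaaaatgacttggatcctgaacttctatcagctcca
The capitals are the whole second exon of Gm12534. Its first exon, at 37231333 to 37231766, lies opposite an Il21 exon that is present only in a retained-intron transcript.

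The promoters of both cytokine genes were searched for GGAAA, the core letters bound by NFAT, a known activator of cytokine genes in triggered T cells. RefSeq windows of 300 bases, from 250 before to 50 after a gene's start (GRCm38.p6), were at hand for 5 of the 7 genes, and the 250 bases before the start are shown for Il2 and Il21, 5′ to 3′ on the minus strand. The capitals mark GGAAA on either strand (TTTCC where it lies on the other).
Il2, chr3:37125955-37126204: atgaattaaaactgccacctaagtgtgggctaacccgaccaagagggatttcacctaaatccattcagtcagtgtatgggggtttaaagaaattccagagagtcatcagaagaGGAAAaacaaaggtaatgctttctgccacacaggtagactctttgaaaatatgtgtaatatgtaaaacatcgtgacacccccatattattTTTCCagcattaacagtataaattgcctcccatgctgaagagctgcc
Il21, chr3:37232637-37232886: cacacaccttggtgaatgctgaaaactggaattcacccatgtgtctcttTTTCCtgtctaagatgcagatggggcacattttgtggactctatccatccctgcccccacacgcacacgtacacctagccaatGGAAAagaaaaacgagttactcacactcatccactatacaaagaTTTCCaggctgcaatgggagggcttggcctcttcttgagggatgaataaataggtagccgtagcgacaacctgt
GGAAA was found 2 times in the Il2 window and 3 times in the Il21 window, and 61.3% of 32851 promoter windows held it at least once. The TATA-box letters TATAAA stood 31 bases before the start of Il2, on the same strand, and in no other member window, against 13.6% of all windows. The AP-1 letters TGANTCA, where N is any base, were in none of the 5 windows and in 7.81% of all. The windows of Il2 and Il21 had 42% and 49% GC and 2 and 5 CpG, while those of Fgf2, Nudt6 and Spata5 had 62.7% to 70.3% GC and 24 to 28 CpG. The medians of all windows were 52.7% GC and 7 CpG. RefSeq starts can differ from the GENCODE ones: the Fgf2 and Nudt6 windows lie inside the GENCODE spans of these genes. The Nudt6 window (37419547 to 37419846) also overlaps that of Spata5 (37419700 to 37419999), so their values are not independent. A match is a run of letters and not a known binding site.

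The 7 genes spanned 515.57 kb (Adad1 at 37063527 to Spata5 at 37579096, mm10). Adad1, Gm12534, Fgf2 and Spata5 lie on the plus strand, and Il2, Il21 and Nudt6 on the minus strand. Exons are counted here after merging overlapping exons of all transcripts of a gene. Il2 (37120523 to 37125959) has 4 exons and 1144 exonic bases, none of them opposite another exon. Il21 (37222759 to 37232636) has 3 merged exon blocks and 5259 bases. Its first block, of 2335 bases, is the retained-intron exon, of which 2099 bases are in no coding transcript. Of the Il21 bases, 469 lie opposite Gm12534 (37231333 to 37232469), and all 469 exonic bases of Gm12534 lie opposite Il21. Nudt6 (37404910 to 37420211) has 8 exons, and 57.0% of its 1677 bases lie opposite Fgf2 (37348346 to 37410108) or Spata5 (37419896 to 37579096).

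**Figure D1:**
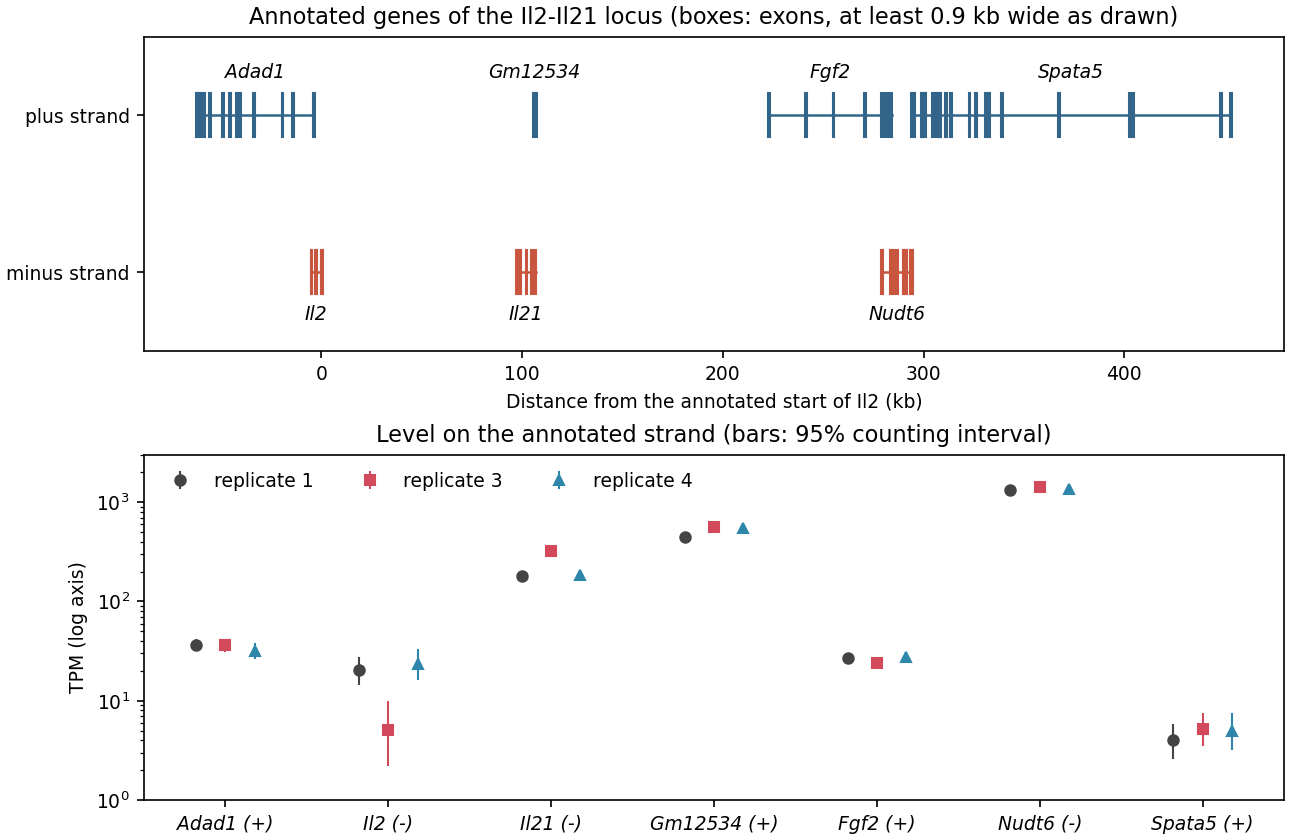
Top, exons of the 7 genes by strand against distance from the annotated start of Il2 (kb). Bottom, TPM (log axis) per gene in replicates 1, 3 and 4, with 95% counting intervals. Nudt6 stands highest, at 1339 to 1414 TPM, and in replicate 3 Il2 lies below and Il21 above the other libraries.

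Il2, the growth factor gene, was read 39, 8 and 32 times in replicates 1, 3 and 4, or 34.1, 6.99 and 27.97 counts per kb of exon, and had no count in replicate 2. Its level was 20.4, 5.10 and 23.6 TPM, a mean of 16.4 ± 9.88 TPM (SD, n = 3). Replicate 3 was low, and its 95% counting interval of 2.20 to 10.1 TPM did not reach those of replicate 1 (14.5 to 27.9) or replicate 4 (16.1 to 33.3). Such intervals cover counting error only. With a coefficient of variation of 59.8% of its CPM, Il2 varied most of the 7 genes.

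Il21, the B-cell helper cytokine gene, had 1574, 2297 and 1143 counts, or 299.3, 436.8 and 217.3 per kb, in replicates 1, 3 and 4. Its level was 179, 319 and 183 TPM (227 ± 79.4 TPM, SD, n = 3), and replicate 3 was the high library. The ratio of Il21 to Il2 in counts per base was 8.78, 62.5 and 7.77. Replicate 2 had 1 count of Il21.

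Gm12534, the antisense transcript inside Il21, had 352, 365 and 302 counts, which its short exons turn into 750.5, 778.3 and 643.9 counts per kb and 449, 568 and 543 TPM (520 ± 62.6, SD, n = 3). It stood above Il21 on the per-length scale in each of the 3 libraries, although Il21 had more counts.

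Nudt6 was the highest of the 7 genes in each of the 3 libraries, with 3751, 3249 and 2684 counts or 2237, 1937 and 1600 per kb. Its 1339, 1414 and 1350 TPM (1368 ± 40.5, SD, n = 3) lay close together, with a coefficient of variation of 4.13% in CPM, the smallest of the 7. That rank holds for scaling by library total. With the TMM factors of edgeR, used to compare libraries below, Nudt6 stood at 1272, 1579 and 1260, highest in replicate 3. Fgf2 then stood at 25.5, 27.0 and 25.7, relatively closer together than Nudt6. Nudt6 held 60.0%, 51.3% and 59.3% of all counts of the 7 genes. Fgf2, the growth factor gene on the other strand, had 304, 225 and 221 counts and 26.8, 24.2 and 27.5 TPM (26.2 ± 1.73, SD, n = 3). Of the exonic bases of Fgf2, 255 are shared on the same strand with Gm43439, and fragments there could be counted for neither gene under the counter's default.

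Adad1 had 201, 162 and 123 counts and 36.8, 36.2 and 31.7 TPM (34.9 ± 2.76, SD, n = 3). Of 3 germ-cell markers, Ddx4 and Dazl had no count, while Prm1 had 12, 12 and 14 counts and stood at 19.7 TPM on average. Their part in the level of Adad1 was not tested. Spata5 was the lowest, with 26, 28 and 23 counts and 4.00, 5.26 and 4.99 TPM (4.75 ± 0.660, SD, n = 3).

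By mean TPM the order was Nudt6, Gm12534, Il21, Adad1, Fgf2, Il2 and Spata5. The ranges of neighbours in that order did not overlap over the 3 libraries, with the exception of Il2 and Spata5: Il2 was the higher in 2 of 3 libraries and lay within the range of Spata5 in replicate 3. For comparison, 20.1%, 16.5% and 20.3% of all genes reached 1 TPM in replicates 1, 3 and 4, and each of the 7 genes did so in each library. The 7 genes together took 0.262%, 0.328% and 0.264% of the counts.

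The genes of the overlapping pairs differed in counts per base by very unequal factors. Gm12534 exceeded Il21 by 2.51, 1.78 and 2.96 times in replicates 1, 3 and 4, or 2.28 times over the pooled counts (95% interval for counting error 2.13 to 2.44). Nudt6 exceeded Fgf2 by 49.9, 58.4 and 49.1 times (pooled 52.2, 48.5 to 56.3). The pair shares 585 bases at 37404910 to 37405494, in part Nudt6 coding sequence, and 55 bases of Nudt6 coding sequence at 37409508 to 37409562, all outside the coding sequence of Fgf2. It exceeded Spata5, with which it shares the 316 bases at 37419896 to 37420211, outside the coding sequence of both, by 334, 269 and 270 times (pooled 291.5, 233 to 370). In all 3 pairs the gene with the larger share of its own exons inside the overlap was the denser. Both genes of a pair share the same bases, so that gene is always the one with fewer exonic bases. Counts per base divide by that same length, so the direction is in part built in. In pooled counts Gm12534 had 1019 against 5014 for Il21, while Nudt6 had 9684 against 750 for Fgf2 and 77 for Spata5.

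The same direction was the commoner one across the genome. Of 3047 opposite-strand pairs with 30 or more pooled counts, the gene with the larger overlapped share was the denser in 2123 (69.7%), with a median log2 ratio of 3.65. Here too that gene is always the shorter in exonic bases, so no effect of the overlap is read from this median. The Nudt6 pairs lay above that median, at log2 ratios of 5.71 and 8.19, and Gm12534 and Il21 below it, at 1.19. Gm12534 lies wholly inside Il21 exons, and among the 302 pairs with 90% or more of a gene inside its partner the median was 7.34 (lower quartile 2.07), so its excess lay below the lower quartile of such pairs. Much of the Gm12534 overlap, 434 of 469 bases, lies opposite the retained-intron exon of Il21, of which 2099 bases are in no coding transcript.

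**Figure D2:**
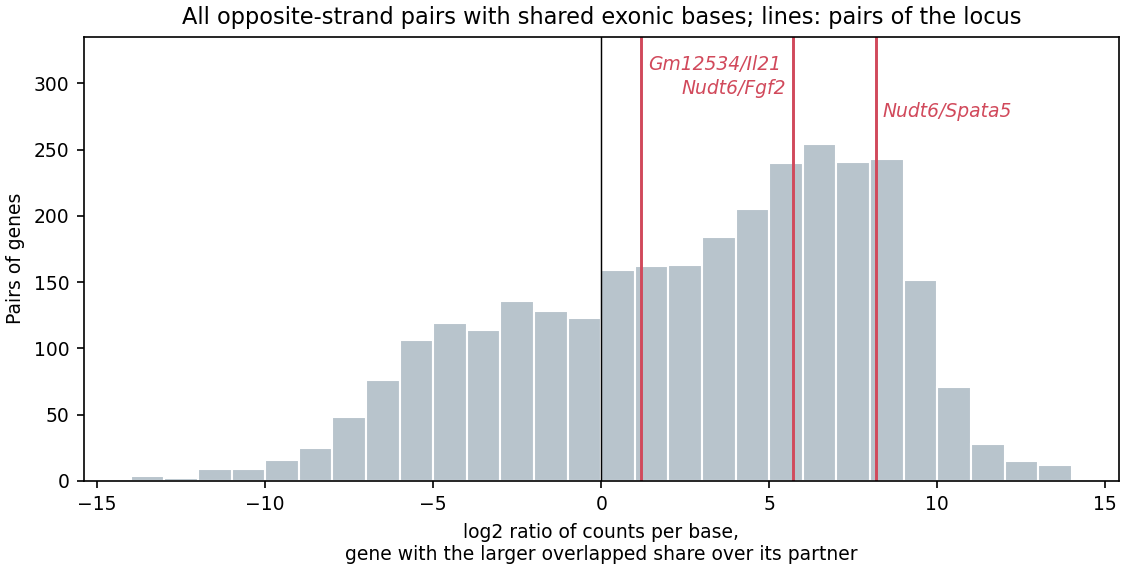
Number of opposite-strand gene pairs by log2 ratio of counts per base, the gene with the larger overlapped share over its partner, pooled over replicates 1, 3 and 4. The gene with the larger share is always the one with fewer exonic bases. Red lines mark the locus pairs at 1.19 (Gm12534 and Il21), 5.71 (Nudt6 and Fgf2) and 8.19 (Nudt6 and Spata5), all above 0.

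Adad1 and Il2 overlap in span by 1408 bases but share no exonic base, because the last exon of Adad1 (37121808 to 37121930) falls in an intron of Il2. Their density ratio was 1.80, 7.08 and 1.34, with Adad1 the denser throughout.

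Libraries were compared with the quasi-likelihood fit of edgeR, 1 against the other two, on 6922 genes with a mean count of 10 or more, with Benjamini-Hochberg adjustment over all of them. The single library is taken to vary as the other two do, and libraries, not conditions, are compared. The 7 genes were chosen with these same counts known, so their log2 folds are a description and no p-value is given for them. Each SE is the absolute log2 fold divided by the square root of the F statistic of the quasi-likelihood test. In replicate 3, Il2 was at a log2 fold of -1.92 (SE 0.59) and Il21 at 0.98 (SE 0.12). Gm12534 was at 0.36 (SE 0.18), Nudt6 at 0.24 (SE 0.11), Adad1 at 0.24 (SE 0.24), Spata5 at 0.40 (SE 0.47) and Fgf2 near 0 (SE 0.21). Il2 and Il21, 2 of the 7 genes, lay past the adjusted threshold of 0.05, where 15.2% of all genes tested did (12.4% lower and 2.79% higher), and nothing is read from that count. It depended on the setting. With all 4 replicates Il21, at 1.08, was no longer past the threshold, and with DESeq2 the unadjusted p of Il2 already missed it, with the fold at -1.84.

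Replicate 3 stood apart by strand class as well. Its median log2 fold was -0.82 over 3060 genes without opposite-strand exons, the class of Il2, and 0.12 over 3862 genes with them, the class of Il21. Against these medians Il2 was still lower by a log2 difference of -1.10 and Il21 higher by 0.86. Adad1, of the same class as Il2 and next to it, lay above that class median by 1.06, so the pair took opposite sides of it. The part of these class shifts, and of the lower marker sums in replicate 3, in the Il2 and Il21 values was not tested. With scaling factors from genes without opposite-strand exons, the median log2 fold of all genes tested stood at 0.59 in replicate 3. Il2 was at -1.22, Il21 at 1.68, Gm12534 at 1.06, Nudt6 and Adad1 at 0.94 and Fgf2 at 0.70. Fgf2 thus lay only 0.11 above that median. That scaling moved the median of all genes by 0.70, so that relative to it Il2 stood at -1.81 under both scalings, and called 2498 genes higher and 175 lower in place of 193 and 858.

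**Figure D3:**
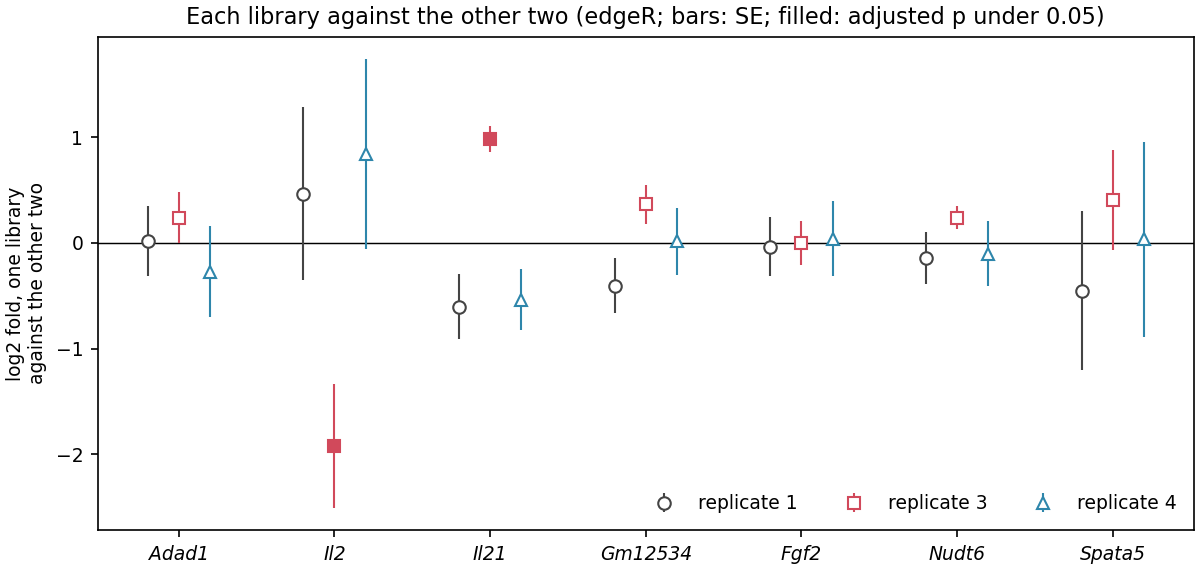
Log2 fold of each gene in 1 library against the other two (edgeR, bars SE, filled symbols adjusted p under 0.05). In replicate 3, Il2 at -1.92 and Il21 at 0.98 are the filled points. The genes were chosen with these counts known, so the folds are a description and nothing is read from the filling.

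In replicate 1, none of the 7 genes was past the threshold, against 0.0289% of genes tested, and in replicate 4 none, against 0.0433%. The genes were chosen with these counts known, so nothing is read from the absence of calls among them. Il21 was at -0.60 (SE 0.31) and -0.54 (SE 0.29) in these comparisons, each of which includes replicate 3 on the other side. Set against a single library, replicate 3 differed from replicate 1 by 1.06 and from replicate 4 by 1.06 for Il21, and by -1.74 and -1.93 for Il2.

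Pathway genes were described from lists that were chosen with earlier results of these data known. Of the 8 receptor genes, Il2ra, the high-affinity interleukin 2 receptor subunit, was highest at 81.0, 21.5 and 68.7 TPM in replicates 1, 3 and 4, and was lowest in replicate 3. The other interleukin 2 subunits Il2rb and Il2rg stood at 11.9 ± 6.38 and 4.11 ± 2.56 TPM (SD, n = 3), and Il21r at 10.3 ± 3.91 TPM. Il7r, Il4ra, Il15ra and Il9r had means of 6.25, 5.17, 0.453 and 0.357 TPM. In replicate 3 the median log2 fold of the 6 tested receptor genes, all but Il4ra without opposite-strand exons, was -1.05. That of all genes tested was -0.11, and that of genes without such exons -0.82. Il2ra at -1.64, Il2rb at -1.44 and Il4ra at -1.20 were called lower. With DESeq2's size factors in edgeR, and with DESeq2 itself, 1 of these calls was kept, that of Il2ra.

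Among other cytokines whose receptors use the gamma chain, Il4 stood at 39.95 ± 7.95 TPM and Il9 at 7.42 ± 1.79 TPM (SD, n = 3), while Il7 and Il15 had no count. Tslp, which signals through Il7r without that chain, had none either. Of the kinases and STATs, Stat3 was highest at 15.5 ± 3.36 TPM. Stat5a followed at 7.53, Stat6 at 5.89 and Stat5b at 5.42 TPM. Jak1 stood at 3.803 and Jak3 at 2.85 TPM, and Jak1 was the only one of 6 tested that was called lower in replicate 3 (log2 fold -1.88).

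The 16 tested regulators of Il2 and Il21 transcription had a median log2 fold of -0.80 in replicate 3. The median was -0.11 over all genes tested and -0.82 over genes without opposite-strand exons, so nothing is read from how many were called. Called lower were Runx1, Nfatc2, Ikzf1, Rel, Nfkb1, Batf and Satb1. Their log2 folds were -2.55, -2.27, -1.69, -1.46, -1.11, -1.11 and -0.85. Pou2f1, which has exons opposite Cd247, was called higher at 0.47. Of the 7, 4 were kept with DESeq2's size factors (Ikzf1, Nfatc2, Nfkb1 and Satb1), and with DESeq2 itself 0 were, 4 being lost and 3 having no adjusted p. Junb, Irf4 and Jund had the highest mean levels of the list, at 129, 102 and 37.6 TPM, and Batf followed at 36.8. Of 8 tested targets, the costimulatory receptor gene Tnfrsf4 had a log2 fold of -1.96 in replicate 3 and the kinase gene Pim1 of -1.22. Myc stood at 13.4 TPM. Of the 2 tested genes of the FGF axis, the phosphatase gene Dusp6 was at -2.76. The median log2 fold was -0.76 over the 8 targets and -1.38 over the 2 FGF genes, beside the -0.11 and -0.82 given above. The receptor genes Fgfr1 to Fgfr4 had at most 3 counts each over the 3 libraries.

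Over all lists, 14 of 39 tested genes were called lower and 1 higher in replicate 3, with a median log2 fold of -0.83 against -0.11 for all genes tested, of which 12.4% were called lower. Among the 24 without opposite-strand exons, 9 were called lower and the median was -1.01, while 22.0% of their class were called lower with a median of -0.82. Of the 14 lower calls, 7 were kept with DESeq2's size factors, 1 with DESeq2 (Il2ra, with 9 lost and 4 without an adjusted p) and 2 with scaling from genes without opposite-strand exons (Il2ra and Tnfrsf4). Il21 lay on the other side of these values, as its log2 fold of 0.98 shows.

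**Figure D4:**
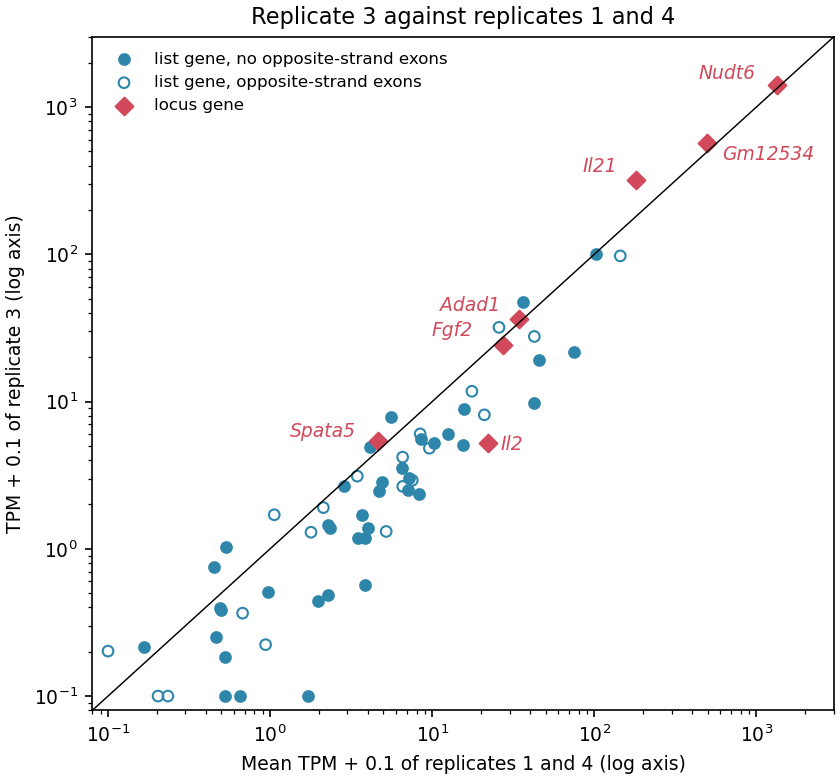
TPM + 0.1 of replicate 3 against the mean TPM + 0.1 of replicates 1 and 4 (log axes) for the 7 genes (red) and the pathway list genes (filled without, open with opposite-strand exons), with the line of equality. Il21 lies above the line, Il2 and most list genes below it.

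The other genes of the locus were sparse. From 300 kb before to 300 kb after the 7 genes there were 31 further genes, of which 10 had no count, 13 had 1 to 9 and 8 had 10 or more. The highest per length was Gm12531, with 368, 355 and 272 counts and 452, 532 and 471 TPM in replicates 1, 3 and 4, a level like that of Gm12534. Gm12531 lies opposite 4932438A13Rik, which had 32, 9 and 37 counts and was thus low in replicate 3, as Il2 was. Gm5148 had 2281, 1834 and 1076 counts and 350, 343 and 233 TPM. Spry1, a feedback inhibitor of FGF signalling, had 17, 12 and 11 counts, and Gm42922 opposite it had 161, 98 and 92. The remaining 3, Cetn4, Gm42921 and Gm43488, had 183, 61 and 12 counts over the 3 libraries.

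Protein-coding and antisense genes outside this window, mitochondrial ones left out, were ranked by nearness to each member. Nearness was the Euclidean distance of log2(TPM + 0.1) over the 3 values of replicates 1, 3 and 4. Nearest to Il2 were Eif4a1, a translation initiation factor gene, at a distance of 0.133, Hnrnpa2b1 at 0.355 and Pdia3 at 0.362. Nearest to Il21 were Gm28914, Gm15441 and Gm15537 at 0.340, 0.363 and 0.415. All 3 are annotated as antisense genes, as were those nearest to Gm12534, which were Gm47248, Gm15932 and 4930483K19Rik. Other gene types could not appear, and the share of antisense genes among those ranked was not computed. Nothing is read from these annotations. Nearest to Nudt6 were Gm16093 (0.0871), Gm16229 and Rad9a, and nearest to Adad1 were Zdhhc5 (0.0768), Gm44777 and Pltp. Nearest to Fgf2 were Fanca (0.0492), Lsm4 and Rec114, and nearest to Spata5 were Synj2, Gm10558 and Cuedc1.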

How the data were processed

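Per the file headers, the authors aligned reads with STAR to mm10 and counted fragments over GENCODE vM13 exons with featureCounts 1.4.6-p4, both mates mapped and read 1 on the strand of the gene (setting 1). They deposited raw counts for 4 libraries. No STAR version was given. Symbols and transcripts came from GENCODE vM21 by identifier, and 224 of 50600 genes had no symbol. Promoter windows are RefSeq's.

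Counts per kb and TPM were computed from counts and exonic length with Python 3.11.15, pandas 2.3.3 and scipy 1.17.1. Count intervals are exact Poisson, ratio intervals exact binomial and shares Wilson, all at 95%, and the floor is 3 counts. Each of replicates 1, 3 and 4 was tested against the other two with edgeR 4.0.16 in R 4.3.3 (TMM, mean count of 10 or more, Benjamini-Hochberg at 0.05), which was tested on simulated data. The simulated counts had a common spread for all genes and no shift between strand classes. Replicate 3 had such a shift, so the simulation does not cover its calls. DESeq2 1.42.0, other scalings, no filter, all 4 replicates and leaving out each replicate were alternatives, and scaling on genes without opposite-strand exons was added after seeing the data.

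The members, lists and tests were chosen with earlier results of these data known. Named genes were the members, window genes with 10 or more counts, and all receptors and STATs. Of each other list, the 3 highest and all called genes were named. So were the 3 nuclear protein-coding or antisense genes nearest by level to each member. Results for a few genes under this rule are not reported here. Replicate 2, at 5016 counts, entered only where named.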

Additional observations from a re-analysis of the deposited data

Results flagged for a closer look

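Replicate 2 lay far from the other libraries for 3 of the 7 genes. The gap of the farthest library to its nearest neighbour, as a share of the range of CPM over the 4 replicates, was 0.853 for Adad1, 0.85 for Fgf2 and 0.931 for Nudt6, above Dixon's 95% limit for 4 samples. Chance passes that limit in about 1 in 20 groups. Adad1 and Nudt6 had no count in replicate 2 and Fgf2 had 1, where 3 counts stand for 598.09 CPM, so for Adad1 and Fgf2 the value rests on at most 1 read. For Nudt6, 8.06 counts would match its level in the other libraries. Of 62 genes with a mean of 1286 to 2009 CPM, Nudt6 was the 1 gene with 0 counts in replicate 2, and their median there was 6 counts. All 7 genes together had 2 counts in replicate 2, or 0.0399% (Wilson 95% interval 0.0109 to 0.145), against 14.3 at their mean share in the other libraries.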

How the results depend on the processing

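No paired analysis was possible because the labels give a single group. With all 4 replicates the mean levels were 26.2 TPM for Adad1, 390.1 for Gm12534, 30.9 for Fgf2, 1026 for Nudt6 and 3.56 for Spata5, the depth of replicate 2 being the limit, and Il21 in replicate 3 was at 1.08 and no longer past the threshold. With only bases free of opposite-strand exons as length, Fgf2 stood at 28.9 and Nudt6 at 3181 TPM, and the log2 density ratios of Nudt6 were 6.78 to Fgf2 and 9.28 to Spata5. In replicate 3, 1051 genes were called by edgeR, 591 with DESeq2's size factors (212 higher, 379 lower), 56 with DESeq2 and 2673 with scaling from genes without opposite-strand exons. Under that last scaling Il2 was at -1.22 and not past the threshold, while Fgf2, which turned from -0.0007 to 0.70, Adad1 at 0.94, Gm12534 at 1.06 and Nudt6 at 0.94 came past it. Without the low-count filter Nudt6 came past it at 0.32, and replicate 1 had 1 gene called in place of 2. In replicate 4 the 3 calls fell to 0 with DESeq2 (10 genes at an unadjusted p under 0.05) and to 0 with the added scaling (35 genes). DESeq2 gave Il2 no adjusted p, and its unadjusted p missed 0.05 as well. The cause of these changes was not tested. The locus genes were chosen with these counts known, so nothing is read from whether any of them passed the threshold under a setting.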
